A study of Homo sapiens with 40 samples.

Results

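The genes described here are the expressed intergenic and antisense long RNAs of HepaRG cells, 226 of the 56568 gene names in the deposited tables. They were selected on name and level: a symbol that starts with LINC, or ends in -AS and a digit, and a control level of at least 1 FPKM, taken as the mean of the 5 control libraries after the FPKM of all transcripts with the same gene name were summed. FPKM are fragment numbers divided by transcript length and by library total, so levels can be set side by side per length. CYP1B1-AS1 was left out of the rule. The files hold 3023 genes with either kind of name, of which 1904 were above 0 in at least 1 control library. Of the 226 members, 80 carry a LINC name and 146 an antisense name. The level that chose them came from the control libraries, so a member close to the limit may have been included because its control values happened to be high. For such members differences from control lean towards lower values, by an amount that was not tested. The comparison of 1 µM with 100 pM PCB 126 used no control library.

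HepaRG is an established human liver line that differentiates into hepatocyte-like and biliary-like cells. Differentiated cells were held from day 8 to day 14 in medium with 2% serum and 1% DMSO, which every group received. There were 8 groups of 5 libraries. Besides the solvent control, cells received PCB 126 at 1 of 3 concentrations (100 pM, 10 nM, 1 µM), glyphosate at 1 of 3 (10 µg/L, 1 mg/L, 0.1 g/L), or 10 µg/L Roundup. PCB 126, a coplanar biphenyl with dioxin-like action, activates the aryl hydrocarbon receptor. Glyphosate is a herbicide and Roundup a formulation of it. The same 5 control libraries served both experiments. Nothing in the labels says that the 5 libraries of a group came from separate cultures, so p-values measure the spread between these libraries, which may be technical.

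Long non-coding RNAs are transcribed and mostly spliced and polyadenylated like mRNAs, but code for no known protein. LINC genes lie between protein-coding genes, and antisense genes are read from the strand opposite to a named partner, often from a shared promoter region. Some act on the neighbouring gene, some bind proteins or small RNAs, some host small nucleolar RNAs in their introns, and a few listed as non-coding were later found to encode short peptides. Many have low levels and tissue-restricted expression, and in liver cells several lie beside genes of hepatocyte transcription factors.

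The checks on the libraries bear on every result. CYP1A1, the classical target of the aryl hydrocarbon receptor, averaged 2.33 FPKM in control, 86.2 at 100 pM, 268 at 10 nM and 235 at 1 µM, and rose by 6.80 on the log2(FPKM + 1) scale at 10 nM (limma, adjusted p = 0.00193) and by 6.61 at 1 µM (adjusted p = 0.000266). At 100 pM its difference of 3.45 (SE 0.93) did not pass, and the libraries overlapped with control (2-sided exact permutation p = 0.0714). In 9 of the 38 libraries that the alignment summary of the study names, more than 30% of read pairs were aligned at several places: 1 control, 2 at 10 nM, 2 at 1 µM, 1 with glyphosate at 10 µg/L, 1 at 0.1 g/L and 2 with Roundup. The 7 hepatocyte markers summed to between 13261 and 19395 FPKM in control and between 5432 and 13293 at 1 µM, where 1 of the 7 (TTR) fell past the threshold. At this dose 5 of the 7 had log2 differences below 0 and the others did not. ALB (11206 FPKM) and SERPINA1 (4210 FPKM) made up most of the mean control sum of 17263 FPKM. The 6 biliary or progenitor markers summed to between 278 and 533 FPKM in control and between 164 and 284 at 1 µM, and none of the 5 tested passed. The 5 mesenchymal markers summed to between 34.96 and 78.6 FPKM in control and between 38.02 and 175 at 1 µM, with medians of 70.3 and 151. LUM (50.2 FPKM) made up most of the mean control sum of 64.8 FPKM, so the sum does not speak for the 5 as a set. COL1A2 and VIM were too low to be tested. Of the 3 tested, COL3A1 fell past the threshold, and the others had log2 differences above 0 that did not pass. The 3 blood or immune markers stayed between 0.184 and 3.69 FPKM in control and between 0.211 and 3.19 at 1 µM. In bulk samples, fewer cells of a type and less RNA per cell cannot be told apart.

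The members were RNAs of low level. Their control means had a median of 1.92 FPKM, against 5.76 FPKM for the 12734 gene names at or above the same limit. Between 1 and 2 FPKM lay 120 members, 82 lay between 2 and 5, 15 between 5 and 10, and 9 above 10 FPKM. LINC genes (median 1.98 FPKM) and antisense genes (median 1.86 FPKM) were close in level. The members nearest to the limit on the inside were FEZF1-AS1 (1.02 FPKM), LINC02256 (1.02) and DENND5B-AS1 (1.03), and on the outside LINC00893 (0.994 FPKM), HLA-F-AS1 (0.993) and ZBTB11-AS1 (0.993). The 5 control values of FEZF1-AS1 ran from 0.0398 to 1.91 FPKM and those of LINC00893 from 0.292 to 1.99, a spread far wider than the distance of either mean from the limit. Of the 226 members, 209 were above 0 in all 40 libraries, and 8 were at 0 in at least 1 control library. The coefficient of variation over the control libraries had a median of 36.8% for the members, against 30.4% for the other genes at or above the limit. It was narrowest for LINC01124 (13.4%) and widest for RAET1E-AS1 (145%).

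**Figure D1:**
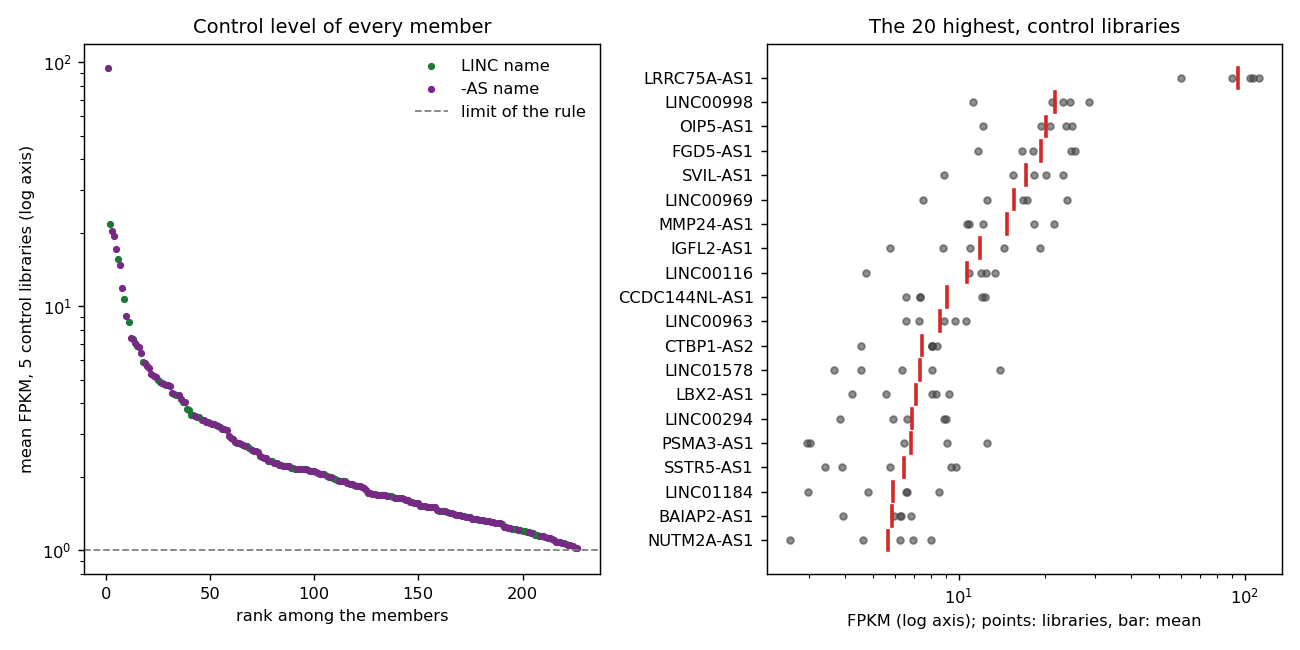
Mean FPKM of the 226 members over the 5 control libraries by rank (left, log axis, dashed line at the limit of 1 FPKM) and the control libraries of the 20 highest members (right, log axis, points for libraries and bars for means). LRRC75A-AS1 stands apart at 94.6 FPKM, and 120 members lie between 1 and 2 FPKM.

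LRRC75A-AS1, now named SNHG29 and a host of the small nucleolar RNAs SNORD49A, SNORD49B and SNORD65, had the highest level. Its control libraries held 104, 107, 90.1, 112 and 59.9 FPKM, a mean of 94.6 ± 21.1 (SD, n = 5), and it alone supplied 12.8% of the summed level of the members. The first 4 control libraries lay close together and the fifth was lower. OIP5-AS1, a cytoplasmic RNA known for binding the RNA-binding protein HuR, was measured at 20.2 ± 5.04 FPKM (SD, n = 5), with FGD5-AS1 at 19.4 ± 5.78 and SVIL-AS1 at 17.2 ± 5.41. IGFL2-AS1 had a control mean of 11.8 FPKM and CCDC144NL-AS1 one of 9.13. The 10 highest members together held 31.7% of the members' summed level.

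Several of the highest members are no longer listed as non-coding. All 226 were found in GENCODE release 44 (GRCh38) by transcript identifier: 214 are lncRNA there, 5 protein coding, 6 transcribed pseudogenes and 1 awaits classification. LINC00998 (21.7 ± 6.46 FPKM in control, SD, n = 5) is now SMIM30, a small membrane protein. LINC00116 (10.7 ± 3.46 FPKM) is MTLN, which encodes a mitochondrial micropeptide. MMP24-AS1 (14.7 ± 4.97 FPKM) is MMP24OS, and LINC00094 and NCBP2-AS2 complete the 5. A name differed from the present one in 38 members, of which 20 are now called divergent transcripts with the ending -DT. LINC00969, now MUC20-OT1 (15.6 ± 6.06 FPKM), was assembled into 142 transcripts in a locus shared with MUC20 and SDHAP2, and 28 members in all shared an assembled locus with another named gene, so that their reads may have been split among the genes of the locus. The same caution holds for the near-identical pairs C4A-AS1 and C4B-AS1, and NUTM2A-AS1 and NUTM2B-AS1. The members had a median of 4 transcripts, the most abundant of which held a median of 64.4% of the level and 1070.5 bases of length, and 34 of these leading transcripts had 1 exon.

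Summed over the 226 members, the level averaged 742 FPKM in control (lowest 420.1, median 748, highest 963), 761 at 100 pM, 606 at 10 nM and 594 at 1 µM. It averaged 730 FPKM with glyphosate at 10 µg/L, 801 at 1 mg/L, 718 at 0.1 g/L and 657 with Roundup. The ranges of all 8 groups overlapped. The total over all transcripts also differed, with means of 414930 FPKM in control, 349932 at 10 nM and 389320 at 1 µM. As a share of all FPKM the members averaged 0.176% in control, 0.174% at 100 pM, 0.170% at 10 nM and 0.150% at 1 µM. With glyphosate the share was 0.175%, 0.186% and 0.175% at the rising doses, and with Roundup 0.170%. The 9 libraries with over 30% multiply aligned pairs held the 9 lowest sums, 367 to 509 FPKM against 616 to 963 in the other 31, of which 2 are not named in the alignment summary, and their share of all FPKM was also lower, with a median of 0.141% against 0.178%. Differences below are also given without these libraries. Leaving them out makes the groups smaller as well, so a lost call cannot be assigned to multiple alignment.

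**Figure D2:**
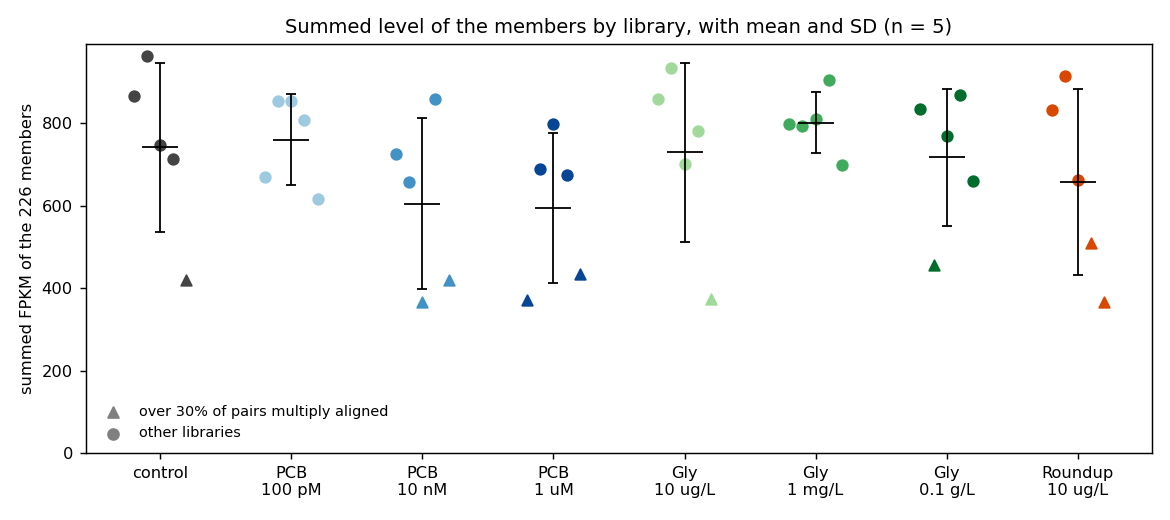
Summed FPKM of the 226 members in each of the 40 libraries by group, with the mean and SD of 5 libraries. Triangles mark the 9 libraries with over 30% of read pairs aligned at several places, which lie between 367 and 509 FPKM, below the other 31 (2 of them not named in the alignment summary).

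At 1 µM PCB 126, 4 of the 226 members passed the threshold against control (limma on log2(FPKM + 1), adjusted p under 0.05 over the 19835 genes tested), and each of the 4 fell: LINC01133, LINC01843, ZNF710-AS1 and SSTR5-AS1. The 4 are 1.77% of the members, where 1.32% of all genes tested were called (99 higher and 163 lower). No member passed at 10 nM, where 0.121% of genes were called, or at 100 pM, where 0% were. With an unadjusted p under 0.05 there were 4 members at 100 pM, 15 at 10 nM and 32 at 1 µM, beside 301, 1017 and 2484 of the 19835 genes. Between 1 µM and 100 pM, LINC01843 and LINC01133 fell, 0.885% of the members beside 1.01% of all genes (53 higher and 147 lower). These shares were near the background.

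LINC01133, an intergenic RNA at chr1:159961218-159984750 (GRCh38, plus strand) that has been studied as a partner of the splicing factor SRSF6 in epithelial cancer cells, fell at 1 µM. Its control libraries held 1.75, 2.00, 1.61, 1.03 and 0.731 FPKM. At 100 pM the values were 0.709, 1.30, 1.25, 1.44 and 0.562 FPKM, which overlapped with control. At 10 nM they were 0.325, 0.585, 0.307, 0.680 and 0.0656, and at 1 µM 0.0308, 0.318, 0.355, 0.178 and 0.214. Every library at 10 nM and 1 µM lay below every control library. The mean fell from 1.43 ± 0.528 to 0.219 ± 0.128 FPKM at 1 µM (SD, n = 5), a ratio of 0.154, and the difference was -0.97 on the log2(FPKM + 1) scale (SE 0.17, adjusted p = 0.00387; 2-sided exact permutation p = 0.00794, the smallest that 5 against 5 allow). At 10 nM the difference was -0.79 (SE 0.17), which did not pass over all genes (adjusted p = 0.0945). From 100 pM to 1 µM it was -0.74 (SE 0.17, adjusted p = 0.0392), a call that was kept in 2 of the 10 fits that left out a library, with the value then between -0.83 and -0.67 over the 10. The 1 µM call against control was kept without each of the 10 libraries in turn and without the libraries over 30% multiply aligned, and was lost when the most abundant of the 3 transcripts alone was tested (adjusted p = 0.06). LINC01133 was tested in 13 alternative fits, as filters on a mean of at least 1 FPKM or a variance above 1 removed it. The paper also left out transcripts with a variance below 1.

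LINC01843 (chr5:134506552-134509229, plus strand), a 2-exon RNA with 1 listed transcript, held 3.25, 3.86, 4.15, 4.61 and 2.05 FPKM in control and 2.71, 3.60, 4.47, 4.81 and 2.72 at 100 pM. At 10 nM it held 2.18, 1.48, 1.09, 3.48 and 1.69, and at 1 µM 1.10, 0.784, 1.63, 1.89 and 0.242. The 1 µM libraries did not overlap with control or with 100 pM, while those at 10 nM overlapped with both. Its mean fell from 3.58 ± 0.987 to 1.13 ± 0.659 FPKM (SD, n = 5), a ratio of 0.315, with a log2 difference of -1.14 (SE 0.26, adjusted p = 0.0224). Against 100 pM the difference was -1.17 (SE 0.26, adjusted p = 0.0258), a call that was kept in 5 of the 10 fits that left out a library (-1.29 to -0.99 over the 10). The call against control held without the libraries over 30% multiply aligned (adjusted p = 0.0255). It was lost without control replicate 2, 3 or 4 or 1 µM replicate 2 or 5, with adjusted p between 0.0594 and 0.0827.

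ZNF710-AS1 (chr15:90074512-90082207, minus strand) lies opposite ZNF710, a zinc-finger gene. A single-exon transcript of 2133 bases held 98.1% of its level. The control libraries held 2.91, 4.20, 2.83, 2.08 and 1.70 FPKM, and those at 100 pM 1.89, 3.59, 2.89, 2.17 and 1.57. The values were 1.03, 1.80, 0.918, 1.92 and 0.789 FPKM at 10 nM and 0.387, 1.28, 1.45, 0.768 and 0.747 at 1 µM. Only the 1 µM libraries lay wholly below the control libraries. The mean fell from 2.75 ± 0.960 to 0.926 ± 0.431 FPKM (SD, n = 5), with a log2 difference of -0.95 (SE 0.23, adjusted p = 0.0341). Against 100 pM the difference of -0.83 (SE 0.23) missed the threshold (adjusted p = 0.0854). ZNF710 itself had control values of 3.23, 4.28, 3.82, 2.78 and 1.59 FPKM and 1 µM values of 1.36, 2.26, 2.32, 1.95 and 1.66, a difference of -0.48 (SE 0.23, adjusted p = 0.382). The exons of the pair overlap by 793 bases, so that some reads could be given to either gene if strand was not used. The ZNF710-AS1 call was lost without the libraries over 30% multiply aligned (adjusted p = 0.0565) and held when these were left out after scaling to the 75th percentile (adjusted p = 0.0367). It was also lost in 7 of the 10 fits that left out a library, with the difference between -1.06 and -0.82 over the 10.

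SSTR5-AS1 (chr16:1064093-1078731, minus strand) lies opposite SSTR5, a receptor for the hormone somatostatin. It had the largest difference on the log2(FPKM + 1) scale and the widest spread of the 4. Its control libraries held 9.38, 5.75, 3.41, 9.79 and 3.90 FPKM, those at 100 pM 2.68, 3.10, 7.22, 6.60 and 7.97, and those at 10 nM 4.38, 1.43, 1.95, 5.30 and 0.725. At 1 µM the values were 0.535, 1.64, 0.729, 4.62 and 0.280 FPKM. The fourth 1 µM library lay within the range of control and the other 4 below it. The log2 difference was -1.67 (SE 0.41, adjusted p = 0.0386; 2-sided exact permutation p = 0.0238). It was lost without the libraries over 30% multiply aligned (-1.37, adjusted p = 0.154), and in 7 of the 10 fits that left out a library, with the value then between -2.01 and -1.47 over the 10.

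With glyphosate and Roundup, none of these 4 RNAs passed the test. The group means of LINC01133 were 1.30, 1.51 and 1.20 FPKM at the rising glyphosate doses and 1.10 with Roundup. Those of LINC01843 were 3.41, 3.98, 3.66 and 2.97 FPKM, those of ZNF710-AS1 2.67, 2.80, 2.58 and 2.36, and those of SSTR5-AS1 4.83, 5.63, 7.41 and 6.01. Every one of these groups overlapped with control. The log2 differences from control had sizes up to 0.22 for LINC01133 (SE 0.19, Roundup) and up to 0.28 for SSTR5-AS1 (SE 0.30, glyphosate at 10 µg/L). Whether the PCB 126 and glyphosate differences differ from each other was not tested.

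**Figure D3:**
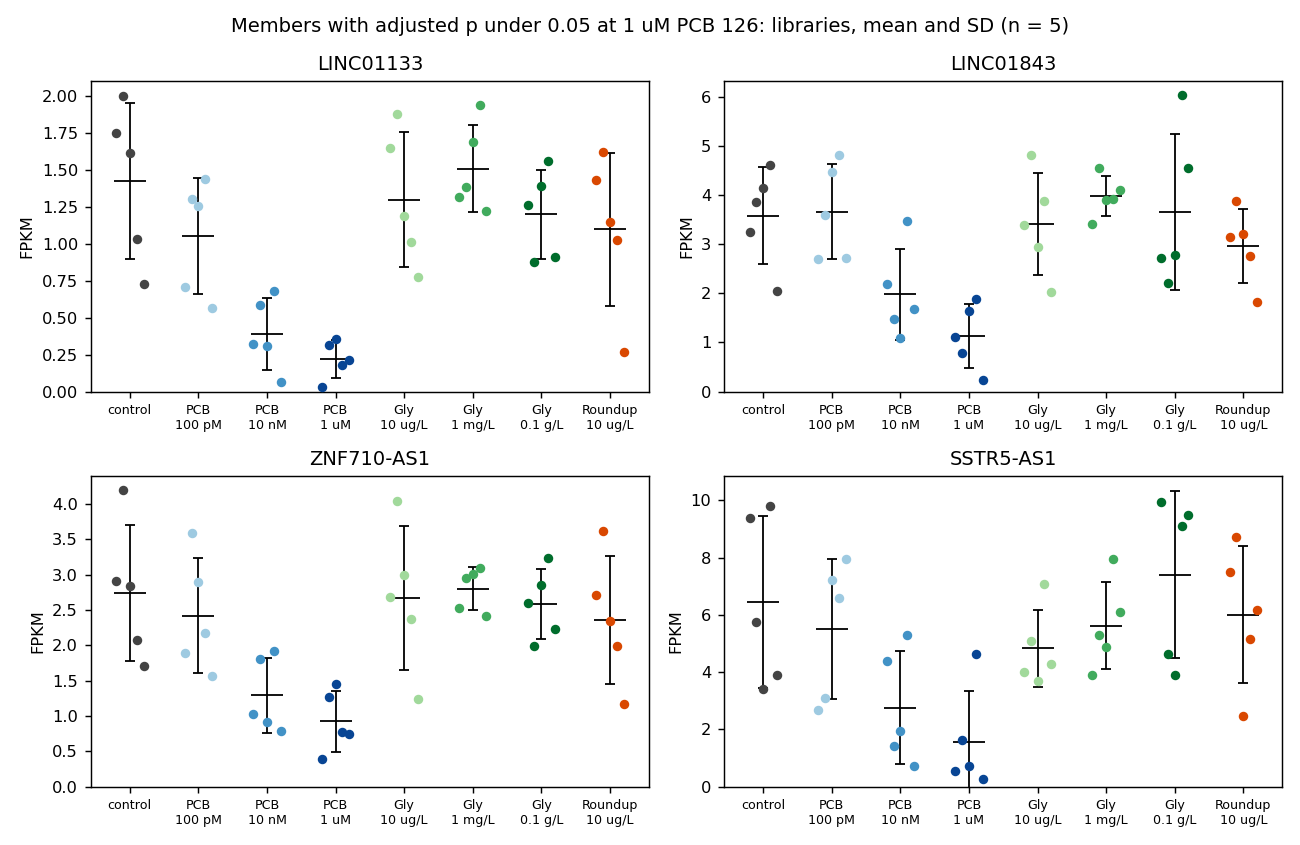
FPKM of LINC01133, LINC01843, ZNF710-AS1 and SSTR5-AS1 in the 40 libraries by group; points are libraries, horizontal marks means and bars SDs (n = 5, cut at 0). LINC01133 averages 1.43 FPKM in control and 0.219 at 1 µM PCB 126, and SSTR5-AS1 has a single 1 µM library, at 4.62 FPKM, within the control range.

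Promoter windows from RefSeq (GRCh38.p14, 250 bases before to 50 after the start) are printed for the 3 called members whose window holds the annotated start of their leading transcript, to show what sequence stands where the RNAs that fell begin. Capitals mark GCGTG, the core of the element that the aryl hydrocarbon receptor binds, searched on both strands (as CACGC on the other).
LINC01133, chr1:159960974-159961273, plus strand: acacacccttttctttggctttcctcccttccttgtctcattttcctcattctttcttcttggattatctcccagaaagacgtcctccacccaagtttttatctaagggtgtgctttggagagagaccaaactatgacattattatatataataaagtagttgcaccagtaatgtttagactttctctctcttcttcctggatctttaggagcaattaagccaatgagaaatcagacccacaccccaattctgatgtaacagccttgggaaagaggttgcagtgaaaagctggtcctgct
LINC01843, chr5:134506302-134506601, plus strand: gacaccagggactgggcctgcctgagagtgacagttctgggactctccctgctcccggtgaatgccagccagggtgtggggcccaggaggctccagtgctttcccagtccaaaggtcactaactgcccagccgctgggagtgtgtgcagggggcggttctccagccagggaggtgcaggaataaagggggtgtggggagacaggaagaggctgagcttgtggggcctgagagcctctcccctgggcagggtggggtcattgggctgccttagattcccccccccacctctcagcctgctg
SSTR5-AS1, chr16:1078682-1078981, minus strand: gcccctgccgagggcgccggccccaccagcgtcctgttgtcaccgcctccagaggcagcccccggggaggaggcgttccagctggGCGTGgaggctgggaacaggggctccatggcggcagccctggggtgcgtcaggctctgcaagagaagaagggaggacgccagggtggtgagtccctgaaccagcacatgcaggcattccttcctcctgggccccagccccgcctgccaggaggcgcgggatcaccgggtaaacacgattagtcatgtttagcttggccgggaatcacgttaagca
LINC01133 and LINC01843 had no match in this window and SSTR5-AS1 had 1, beginning 165 bases before the start. Windows were found for 161 members, some with several starts: 53.0% of their 202 windows held the core, against 36.5% of all 35116 windows of the same length. The member windows were also richer in G and C, with a median of 63.8% against 58.7%. The LINC01133 window held 41.3% G and C. A match is a description and not a binding site, and no match says only that these letters are not in this window.

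Without overlap between 5 treated and 5 control libraries, 5 members lay lower at 1 µM and none higher, or 2.21% of the members where 1.72% of all genes lay lower. Beside LINC01133, LINC01843 and ZNF710-AS1 these were LINC02475 and TMPO-AS1, named here because they complete the count. LINC02475 held 2.97, 3.76, 2.64, 2.42 and 1.36 FPKM in control and 0.670, 1.21, 1.11, 1.05 and 0.550 at 1 µM, a log2 difference of -0.90 (SE 0.25, adjusted p = 0.0752). TMPO-AS1, read from the strand opposite to TMPO, which encodes a protein of the nuclear lamina, held 1.72, 1.48, 0.708, 0.873 and 0.792 FPKM in control and 0.503, 0.519, 0.545, 0.655 and 0.660 at 1 µM. The gap between the groups was thus small beside the spread of the control libraries. Because the control libraries also chose the members, the count of 5 lying below control is not independent of the rule. Exons of TMPO-AS1 and TMPO (22.2 FPKM in control) overlap by 646 bases, so some reads could be given to either gene if strand was not used.

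At 10 nM, 2 members lay wholly below control, 0.885% of the members against 0.368% of all genes: LINC01133 and LINC00339, an RNA at chr1:22024531-22031225. LINC00339 held 5.82, 4.87, 5.35, 4.30 and 3.49 FPKM in control and 2.80, 2.34, 2.37, 3.13 and 2.52 at 10 nM, and its difference of -0.66 (SE 0.26) did not pass over all genes (adjusted p = 0.787). At 1 µM the values spread from 0.765 to 4.40 FPKM and overlapped with control again. At 100 pM no member was free of overlap, and 0.207% of genes were. Between 1 µM and 100 pM, 11 members lay wholly lower and none higher, 4.87% of the members where 4.02% of all genes lay lower: LINC01843, LINC01133, LINC02475, ZNF710-AS1, LINC01146, LINC01419, TMPO-AS1, LINC-PINT, LINC01184, NNT-AS1 and MCF2L-AS1. LINC01146, now named HISLA, held 1.99, 2.41, 2.55, 2.94 and 2.37 FPKM at 100 pM, was listed at 0 in 1 of the 1 µM libraries and held 1.27, 1.24, 1.37 and 0.534 in the others (adjusted p = 0.11).

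The members as a group were lower at the upper PCB 126 doses, as were most genes. The median log2 difference from control was 0.03 at 100 pM, -0.23 at 10 nM and -0.27 at 1 µM for the members, beside 0.05, -0.15 and -0.16 for all genes tested. The 2 sets were not matched for level: members needed a control mean of 1 FPKM, all genes a mean of 0.2 FPKM. On the log2(FPKM + 1) scale the added 1 shrinks differences at low levels. The 131 partner genes of antisense members that were tested had a median of -0.23 at 1 µM. At 1 µM, 186 members were below 0 and 40 above, and 15052 of the 19835 genes were below 0. The median was -0.30 for LINC genes and -0.26 for antisense genes. The 71 members with a control mean under 1.5 FPKM had a median of -0.22 and the 24 at 5 FPKM or more one of -0.43. Because the scale depends on level, these medians cannot show the part of the rule, which was not tested. Against 100 pM, with no control library involved, the median was -0.28 for the members and -0.21 for all genes. Group means fell at both steps from 100 pM to 1 µM in 108 members (47.8%), where 45% of genes did so, and rose at both in 10 (4.42%), where 6.73% did.

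The shift was smaller after scaling. Setting each library to the same 75th percentile moved the median at 1 µM to -0.17 for the members and -0.07 for all genes, and quantile normalization to -0.05 and 0.00, a shift of all genes by 0.16 from the deposited values. Without the libraries over 30% multiply aligned the medians were -0.15 and -0.08. The calls moved with it: 9 members passed at 1 µM after 75th-percentile scaling (2 higher and 7 lower) and 12 after quantile normalization (5 higher and 7 lower). Over all genes the share of higher calls went from 37.8% to 50.5% under the latter. The share of all genes called under these settings is not given here, so the larger counts are not a result about the members. LINC01133, LINC01843, ZNF710-AS1 and SSTR5-AS1 were called lower under both. The hepatocyte and biliary marker sums were lower at the same dose, as given above, and their part in the result was not tested.

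**Figure D4:**
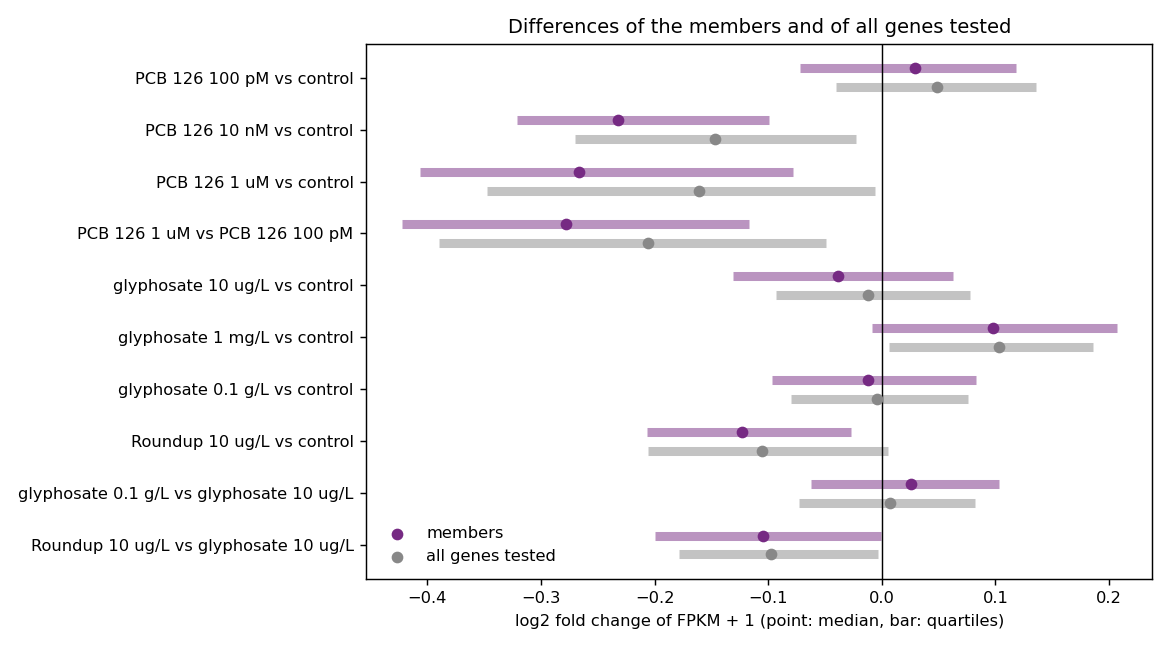
Log2 fold change of FPKM + 1 for the 226 members and for all genes tested in the 10 comparisons; points are medians and bars quartiles. The sets are not matched for level. At 1 µM PCB 126 against control the medians are -0.27 and -0.16, and in the glyphosate and Roundup comparisons both lie closer to 0.

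Of the 40 members above 0 at 1 µM, none passed as deposited. MMP24-AS1 held 10.7, 21.6, 18.4, 12.2 and 10.8 FPKM in control, with a mean of 14.7, and averaged 25.9 ± 8.50 at 1 µM (SD, n = 5). Its difference of 0.77 (SE 0.28) did not pass as deposited (adjusted p = 0.232) and passed after 75th-percentile scaling (0.93, adjusted p = 0.0333), which called it higher with SLC9A3-AS1. LINC00475 held 0.108, 1.59, 0.244, 2.67 and 1.11 FPKM in control and 5.90, 4.89, 2.82, 4.99 and 2.15 at 1 µM, with the lowest 1 µM library inside the control range. Its difference of 1.34 (SE 0.41) missed the threshold (adjusted p = 0.125). MMP24-AS1 shares its assembled locus with EIF6, and the reads of that locus may have been split. MMP24-AS1, SLC9A3-AS1 and LINC00475 were chosen for naming after their values were seen.

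For 144 of the 146 antisense members the partner gene is listed, and 143 pairs could be placed in GENCODE, each on opposite strands. The starts lay within 1000 bases of each other in 53 pairs, the gene spans overlapped in 123, and exons overlapped in 98, by over 50% of the antisense exon bases in 7. The partner had the higher control level in 94 pairs and the lower in 50, and the antisense member reached a median of 45.9% of the partner's level. FGD5-AS1 (19.4 FPKM) faced FGD5 at 0.0315, and OIP5-AS1 (20.2 FPKM) faced OIP5 at 1.85, while GAS6-AS1 (3.09 FPKM) stood at 5.84% of the level of GAS6. The library kit keeps strand, but whether strand was used at the alignment and assembly is not given in the sources used here, so overlapping exons leave the split between partners uncertain.

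**Figure D5:**
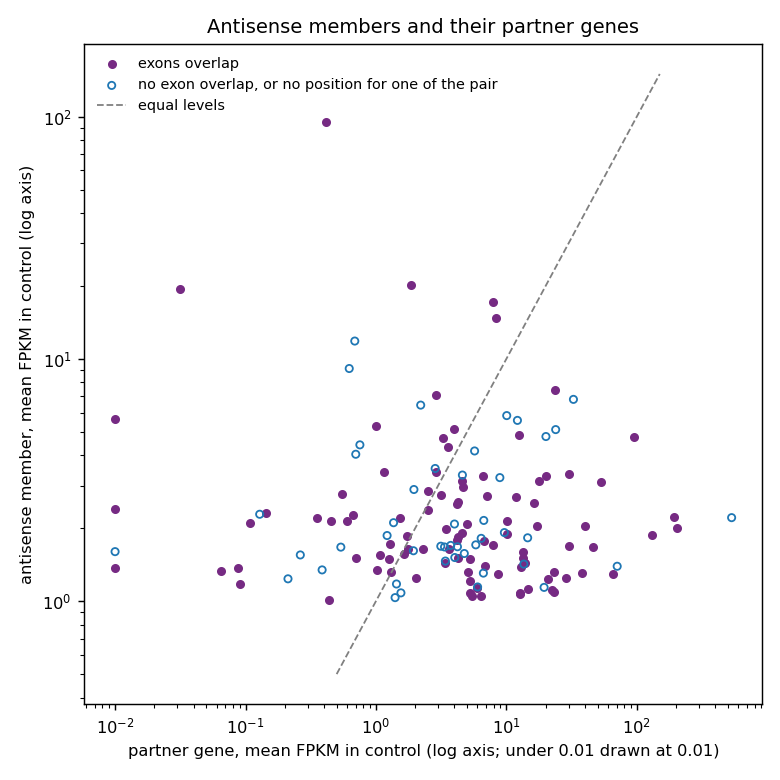
Mean control FPKM of 144 antisense members against that of their partner genes (both log axes; partners under 0.01 drawn at 0.01); filled points have overlapping exons. Points below the dashed line of equal levels are the 94 pairs with a higher partner, and FGD5-AS1 lies far to the left at a partner level of 0.0315 FPKM.

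Of 131 partners tested, 2 were called at 1 µM against control. Over all genes tested 1.32% were called, so the partner count was near the background. SSTR5 fell with SSTR5-AS1, from 2.03, 2.11, 2.35, 2.60 and 1.92 FPKM in control to 0.198, 0.830, 0.374, 0.673 and 0.632 at 1 µM, without overlap (log2 difference -1.07, SE 0.26, adjusted p = 0.0338). The exons of SSTR5-AS1 and SSTR5 share no base, and their starts are 5984 bases apart. GAS6, a secreted ligand of the AXL family of receptors, rose from 56.3, 64.0, 63.9, 52.4 and 28.4 FPKM in control to 124, 114, 132, 131 and 77.1 at 1 µM, again without overlap (1.14, SE 0.28, adjusted p = 0.0373). GAS6-AS1 did not rise with it: its control libraries held 4.64, 3.06, 3.10, 3.00 and 1.67 FPKM and its 1 µM libraries 1.95, 0.746, 4.12, 1.01 and 1.38, with a difference of -0.60 (SE 0.29, adjusted p = 0.403). Against 100 pM, ZNF337 fell by 0.89 (SE 0.21, adjusted p = 0.0462), while ZNF337-AS1 averaged 2.32 ± 0.731 FPKM at 100 pM and 2.07 ± 0.812 at 1 µM (SD, n = 5). ZNF337 was the only partner called in this comparison, where 1.01% of all genes were. No partner passed at 100 pM, at 10 nM or in the 6 comparisons of glyphosate and Roundup.

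A list of 24 long RNAs studied in liver or in epithelial cells held 9 members, none of which was called in any of the 10 comparisons. OIP5-AS1 went from 20.2 FPKM in control to 14.6 ± 4.63 at 1 µM (SD, n = 5; difference -0.46, SE 0.27). LINC-PINT held 1.42, 4.07, 2.00, 1.19 and 1.06 FPKM in control and averaged 0.858 ± 0.422 at 1 µM (difference -0.61, SE 0.27, adjusted p = 0.341). LINC00261, which lies beside FOXA2 and was assembled in the same locus, held 3.94, 5.17, 0.814 and 2.79 FPKM in 4 control libraries and was listed at 0 in the other. It averaged 0.690 FPKM at 100 pM, 0.161 at 10 nM and 1.17 at 1 µM, with a difference of -1.35 at 10 nM (SE 0.49, adjusted p = 0.689). LINC00963 had a control mean of 8.61 ± 1.69 FPKM and 5.07 ± 2.41 at 1 µM (SD, n = 5; difference -0.73, SE 0.27, adjusted p = 0.25). FOXD2-AS1, ZEB1-AS1 and MCM3AP-AS1 had 1 µM differences of -0.19, -0.49 and 0.10, and GAS6-AS1 is given above. HNF4A-AS1, opposite the gene of a hepatocyte transcription factor, was measured at 0.662 FPKM in control and fell short of the limit, as did LINC00844 at 0.928.

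The 10 highest members likewise had no call at any dose of PCB 126. LRRC75A-AS1 averaged 99.9 ± 13.5, 80.2 ± 28.3 and 73.8 ± 26.9 FPKM (SD, n = 5) from 100 pM to 1 µM, against 94.6 in control (1 µM difference -0.43, SE 0.31, adjusted p = 0.566). The 1 µM differences of LINC00998 (-0.52), FGD5-AS1 (-0.43), SVIL-AS1 (-0.24), LINC00969 (-0.53), IGFL2-AS1 (-0.50) and CCDC144NL-AS1 (-0.66) were below 0, and those of LINC00116 (0.15) and MMP24-AS1 above. The 5 members now annotated as protein coding had a median of 0.05 at this dose, beside -0.27 for the 226, as a description of few genes.

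No member and no gene passed against control with glyphosate at 10 µg/L, 1 mg/L or 0.1 g/L or with Roundup, nor between the extreme glyphosate doses or between Roundup and glyphosate at 10 µg/L (0% of the 20597 genes tested in each of the 6 comparisons). Members with an unadjusted p under 0.05 numbered 5, 2, 0 and 6 in the 4 comparisons with control, then 2 between glyphosate doses and 1 between Roundup and glyphosate. Over all genes there were 366, 394, 298, 427, 277 and 362. A single member lay wholly above control at 10 µg/L glyphosate, 0.442% of the members where 0.0922% of genes lay higher. This was AZIN1-AS1, with 1.44, 1.86, 1.67, 1.40 and 0.743 FPKM in control and 2.79, 3.13, 2.07, 1.95 and 1.99 with glyphosate (difference 0.49, SE 0.21, adjusted p = 1). It averaged 2.41 ± 0.593 FPKM at 1 mg/L and 1.99 ± 0.503 at 0.1 g/L, where the groups overlapped with control, and 2.05 ± 0.384 at 100 pM PCB 126. At 1 mg/L and 0.1 g/L no member was free of overlap, beside 0.262% and 0.17% of genes.

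With Roundup, LINC00674 alone lay wholly below control, where 0.0874% of genes did so. Now annotated as a transcribed pseudogene, it held 1.36, 1.23, 1.62, 1.21 and 0.604 FPKM in control and 0.575, 0.585, 0.346, 0.446 and 0.369 with Roundup (difference -0.58, SE 0.17, adjusted p = 0.981). With glyphosate at the same nominal 10 µg/L it averaged 0.766 ± 0.389 FPKM (SD, n = 5) and overlapped with control. CTBP1-AS2, now CTBP1-DT, had unadjusted p under 0.05 both at 100 pM PCB 126 (difference -0.68, SE 0.27, adjusted p = 1) and with Roundup (-0.72, SE 0.26, adjusted p = 0.981), in comparisons that share the control libraries. The median differences of the members were -0.04, 0.10, -0.01 and -0.12 in the 4 comparisons with control, beside -0.01, 0.10, 0.00 and -0.11 for all genes.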

How the data were processed

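RNA of 40 HepaRG libraries in 8 groups of 5 was rRNA-depleted and sequenced as 75-bp pairs with a directional kit. The authors aligned the reads to GRCh38 with HISAT2, ran StringTie over Ensembl release 89 for transcript abundance, and deposited FPKM for 234960 transcripts per library in 2 tables. Deposited columns that hold values just below 0 were recorded as a score for that reason alone and used as FPKM, with 4 and 6 such values set to 0. Depth was not used as a weight, and the number of libraries limits precision. FPKM were summed per gene name. Genes with a mean of at least 0.2 FPKM over a table were tested as log2(FPKM + 1) with limma 3.58.1 (R 4.3.3; lmFit, eBayes with trend), all groups of a table in 1 fit, with Benjamini-Hochberg adjustment over all genes tested. The 10 comparisons were 7 against control and 3 between treated groups. Single values were compared by 2-sided exact permutation over 252 splits. The fit was tested on simulated data. Tables and plots used Python 3.11.15, numpy 2.4.6, pandas 2.3.3 and matplotlib 3.10.9.

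Members, gene lists and named genes were chosen with earlier results of these data known. Named were called members, the 10 highest, the 3 on each side of the limit, the 3 largest differences without overlap per comparison with control, a list of 24 RNAs, partners of named antisense members, and CYP1A1. Of the list, 2 names are not analysed here and 1 member is not reported here. Replicate numbers follow the order of library numbers and serve to name a library and, in an alternative fit, as a block.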

Additional observations from a re-analysis of the deposited data

Results flagged for a closer look

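Each group of 5 was examined for a library far from the others in the 4 called members, the 10 highest members and the summed level, 120 groups in all. Such a gap arises by chance in about 1 of 20 groups, and 3 were found where 6 would be. LRRC75A-AS1 was at 96.6 FPKM in glyphosate 1 mg/L replicate 1, below the 101.6 to 103.6 of the other 4. LINC00969 was at 6.20 FPKM in glyphosate 10 µg/L replicate 5, a library over 30% multiply aligned, against 18.4 to 23.3 in the others. CCDC144NL-AS1 was at 14.0 FPKM in PCB 126 100 pM replicate 1, above the 7.90 to 9.26 of the others. No member lay wholly below control in 1 treatment and wholly above it in another.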

How the results depend on the processing

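In the 6 glyphosate and Roundup comparisons and at 100 pM PCB 126, 0 members were called under each of the 16 alternatives and without each library. At 10 nM, where 0 were called, 1 member passed after 75th-percentile scaling, with a library-size term, with all 40 libraries in 1 fit, and with the replicate block, 2 after quantile normalization, and 0 to 1 when a library was left out (1 without control replicate 5). At 1 µM against control (4 called), the count was 9 after 75th-percentile scaling, 12 after quantile normalization, 7 with a library-size term and with all 40 libraries, 2 with a variance filter, with no filter and without libraries over 30% multiply aligned, and 1 with only the 2 groups or the most abundant transcript. It was 1 to 7 when a library was left out: 7 without control replicate 5, 2 without control replicate 1 or 3 or 1 µM replicate 1 or 2, and 1 without control replicate 2 or 4 or 1 µM replicate 5. Between 1 µM and 100 pM (2 called), it was 10 after 75th-percentile scaling and with a library-size term, 9 after quantile normalization, 6 with all 40 libraries and with the replicate block, 5 after scaling without the libraries over 30% (an alternative chosen after seeing the data), 1 with a mean of at least 1 FPKM, a variance filter, no trend, the most abundant transcript, members chosen over all libraries, or without libraries over 30%, and 0 with no filter or an ordinary linear model. Left-out libraries gave 0 to 3: 0 without 100 pM replicate 2, 3 or 4 or 1 µM replicate 2 or 5, and 1 without 1 µM replicate 1 or 3. The shares of all genes called in these fits are not given here, so the counts cannot be read as particular to the members. The cause of these changes was not tested. No called difference changed sign. Same-numbered libraries had a median correlation of deviations of 0.083 in the PCB 126 table (12 of 30 pairs over 0.1), against -0.023 for other pairs. In the glyphosate table the medians were 0.075 (21 of 50 pairs over 0.1, highest 0.522) and -0.016. The labels do not say whether libraries of the same number were handled together, and the main fit did not pair them. With the replicate block 6 members were called at 1 µM. FPKM keep no read counts, and 5 libraries a group limit what low RNAs can show.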
